A study of Mus musculus with 9 samples.

Results

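Among LSK cells of mouse bone marrow, 759 of 15975 cells carried an interferon-activated transcriptome, taken here as at least 1 unique molecular identifier (UMI) of at least 4 of the 8 interferon-stimulated genes Ifit1, Rsad2, Oasl1, Isg15, Iigp1, Zbp1, Irf7 and Rtp4. LSK cells are lineage-negative, Sca-1+ and c-Kit+ cells, the sorted fraction of bone marrow that holds the hematopoietic stem cells and the multipotent progenitors. The 15975 cells were the barcodes with 1000 to 40000 UMIs, at most 6000 genes and at most 10% mitochondrial UMIs in 9 libraries, 3 per group. All mice were C57BL/6. Young mice were 10 to 12 weeks old and aged mice were older than 80 weeks, and both received the vehicle cyclodextrin. CASIN mice were aged mice given the Cdc42 activity inhibitor CASIN in cyclodextrin, as 4 intraperitoneal doses of 25 mg/kg spaced 24 h apart, and marrow was taken on day 5. Sorted cells had been frozen and thawed before the libraries were made, and the number of mice per library is not given in the sources used here, so p-values below measure the spread between these libraries. Sequencing batch 1 held young 1, young 2, aged 1, CASIN 1 and CASIN 2, and batch 2 held young 3, aged 2, aged 3 and CASIN 3.

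Type I and type II interferons bind receptors that activate JAK kinases, and these phosphorylate transcription factors of the STAT family. A complex that holds STAT2 and IRF9 binds a DNA element called the interferon-stimulated response element (ISRE) and switches on genes that block viral replication, while a second element, called GAS, is known for its part in the response to interferon gamma. In the marrow, interferons can drive dormant stem cells into cycle, and stem cells are known to keep some interferon-stimulated genes on without infection.

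The products of the 8 genes that chose the cells include an RNA-binding inhibitor of translation (Ifit1), the antiviral enzyme viperin (Rsad2), a ubiquitin-like modifier (Isg15), an immunity-related GTPase (Iigp1), a sensor of Z-form nucleic acids (Zbp1) and the transcription factor that amplifies interferon production (Irf7). The promoter sequences of 3 of them are shown because they hold the letters through which interferon is known to act on such genes. Each is a stretch of the 250 bases upstream of the gene start in RefSeq (GRCm38.p6), written 5′ to 3′ on the gene's strand, and capitals mark every match to the ISRE letters GAAANNGAAA on either strand. The Ifit1 stretch lies at chr19:34640765-34640833 on the + strand, the Rsad2 stretch at chr12:26456543-26456592 on the - strand and the Isg15 stretch at chr4:156200855-156200916 on the - strand.
Ifit1: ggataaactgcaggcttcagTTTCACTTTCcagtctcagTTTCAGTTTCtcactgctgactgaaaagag
Rsad2: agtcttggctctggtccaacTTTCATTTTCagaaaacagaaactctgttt
Isg15: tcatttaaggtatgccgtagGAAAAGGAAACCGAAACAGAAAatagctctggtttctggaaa
The Isg15 stretch holds 3 overlapping matches and the Ifit1 stretch 2 separate ones. Of the 5 selecting genes with a promoter in the table these 3 had a match, and Oasl1 and Irf7 had none in this window, against 2.98% of all 32851 promoters.

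The 9 libraries held 19237354 to 42780953 UMIs, and the interferon-activated cells of each library together gave 371489 to 3935105 UMIs, so levels in batch 2, where few cells qualified, rest on the fewest molecules. These cells made up 10.7% of the cells of young 1 (230 cells), 8.23% of young 2 (182 cells) and 1.90% of young 3 (23 cells). In aged mice they made up 3.63% of aged 1 (57 cells), 1.66% of aged 2 (28 cells) and 1.41% of aged 3 (25 cells). In CASIN mice they made up 5.19% of CASIN 1 (58 cells), 7.32% of CASIN 2 (132 cells) and 0.983% of CASIN 3 (24 cells). The 4 libraries of batch 2 were the 4 lowest in every group, with 1.41% of cells in batch 2 and 7.44% in batch 1, and the ranges of the 3 groups overlapped. The batches also differed in Xist, the RNA of the inactive X chromosome, which was at most 0.254 CPM (UMIs per 1000000 UMIs of the summed cells) in these cells in batch 1 and 2142 to 2450 CPM in batch 2, so batch and sex cannot be told apart. Detection of 4 genes also depends on depth. When every cell was thinned to 4000 UMIs, 122 of 15606 cells qualified, and the shares were 0.989%, 1.70% and 0.842% in young 1 to 3, 0.781%, 0.303% and 0.353% in aged 1 to 3, and 0.633%, 1.03% and 0.253% in CASIN 1 to 3. At that depth the lowest young library was above the highest aged library.

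**Figure D1:**
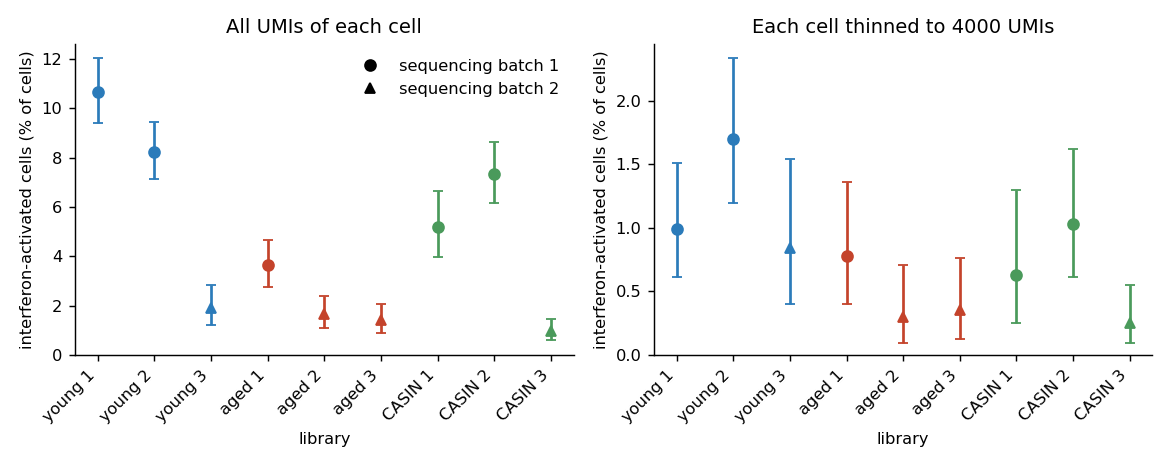
Share of cells that were interferon-activated (y axis, percent of cells) in each of the 9 libraries (x axis), with all UMIs on the left and with every cell thinned to 4000 UMIs on the right; points are libraries, circles batch 1 and triangles batch 2, colours mark the groups and bars are exact 95% binomial intervals, which cover counting error only. The libraries of batch 2 lie lowest on the left, and on the right the 3 young libraries (0.842% to 1.70%) lie above the 3 aged ones (0.303% to 0.781%).

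To ask whether age or CASIN changed how frequent these cells were, the shares were compared between groups with a two-sided exact permutation test over libraries, which cannot go below p = 0.1 for 3 against 3. The share was 6.93% ± 4.52 in young, 2.23% ± 1.22 in aged and 4.50% ± 3.22 in CASIN mice (SD, n = 3 each). Aged libraries were 4.70 percentage points lower than young ones (exact p = 0.2, adjusted over the 3 comparisons 0.4), by 5.81 points in batch 1 and by 0.364 points in batch 2. CASIN libraries were 2.26 points higher than aged ones (exact p = 0.4, adjusted 0.4), but 0.550 points lower within batch 2. CASIN against young libraries gave -2.43 points (exact p = 0.4, adjusted 0.4), with -3.19 and -0.914 points within batches 1 and 2. Thinned to 4000 UMIs, the aged share was lower by 0.698 points, with exact p = 0.1 and an adjusted p of 0.3, with differences of -0.563 and -0.514 points within batches 1 and 2. At that depth CASIN libraries differed from aged ones by 0.159 points (exact p = 0.7, adjusted 0.7) and from young ones by -0.539 points (exact p = 0.3, adjusted 0.45). Thinned to 2000 UMIs, the aged share was lower than the young one by 0.252 points (exact p = 0.2, adjusted 0.45), and the groups overlapped. With at least 3 selecting genes it was lower by 7.19 points (exact p = 0.4, adjusted 0.6), but 1.90 points higher within batch 2. CASIN libraries were then 0.468 points higher than young ones within batch 2. With at least 5 genes the aged share was lower by 2.11 points (exact p = 0.2, adjusted 0.4), and by 0.380 points within batch 2. None of these differences passed the threshold of 0.05.

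The cells formed the upper end of a continuous distribution. None of the 8 genes was detected in 7224 cells, 1 in 4877, 2 in 2143 and 3 in 972, the cells just outside the limit. Exactly 4 were detected in 430 cells, which were 56.7% of the selected cells, 5 in 195, and 6 to 8 in 134. As a description of what the rule chose, Isg15 was detected in 70.8% of the cells of CASIN 3 to 88.0% of those of aged 3 and Rtp4 in 62.5% of the cells of CASIN 3 to 92.2% of those of young 1, with Rtp4 above Isg15 in all 5 libraries of batch 1. Oasl1 had one of the lowest shares, from 17.5% in aged 1 to 60.9% in young 3. Mean levels over the 9 libraries were 357 CPM for Rsad2, 173 for Isg15, 131 for Rtp4, 122 for Ifit1, 101 for Iigp1, 80.2 for Irf7, 61.7 for Oasl1 and 42.8 for Zbp1, against 2.02 (Oasl1) to 17.9 CPM (Rtp4) in all other cells. No barcode of these cells was shared between libraries as a selected cell in both, and 5 of them had a barcode that was also a kept cell of another library.

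The mix of selecting genes was not the same in both batches. Isg15 was at 190, 200 and 197 CPM in young 1 to 3, at 222, 180 and 154 CPM in aged 1 to 3 and at 134, 148 and 133 CPM in CASIN 1 to 3. Rsad2 was at 36.3, 63.9 and 1470 CPM in young 1 to 3, at 79.6, 447 and 639 CPM in aged 1 to 3 and at 53.8, 75.7 and 349 CPM in CASIN 1 to 3. The level of Isg15 thus varied little, while Rsad2 in every batch 2 library lay above every batch 1 library. The cells behind this were looked for after the values had been seen. Cells with 10 or more Rsad2 UMIs numbered 20 in batch 2 and 5 in batch 1, and the 20 held 1028 of the 1155 Rsad2 UMIs (89.0%) of the batch 2 cells. Of these 20 cells, 85% had Ifit1, 90% Oasl1 and 90% Isg15, but 35% had Irf7 and 10% Zbp1, and 80% had the chemokine gene Ccl4 at a mean of 4609 CPM. The cell with the most Rsad2, from young 3, held 169 Rsad2, 35 Ifit1, 41 Oasl1 and 12 Ccl5 UMIs and none of Irf7, Zbp1 or Iigp1. In the other 80 cells of batch 2, 72.5% had Irf7, 52.5% had Zbp1 and Ccl4 was at 428 CPM. In the 5 cells of batch 1, 80% had Irf7 and 80% Zbp1. Since a cell needed 4 of the 8 genes, a cell without some of them had to have others, so the shares of the selecting genes are not independent of each other. These 20 cells came from all 4 libraries of batch 2.

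**Figure D2:**
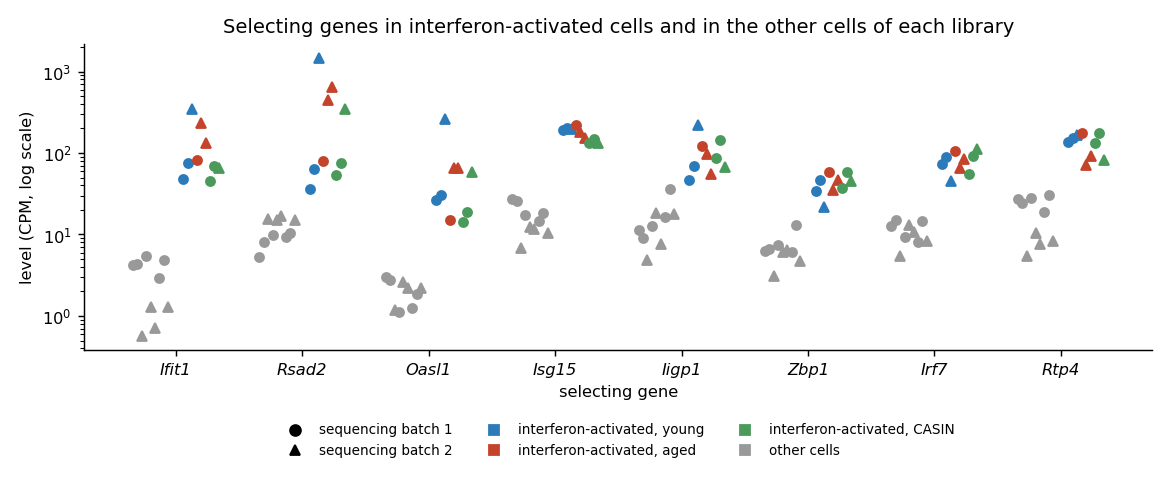
Level of the 8 selecting genes (y axis, CPM, log scale; x axis, gene) in the interferon-activated cells of each library, coloured by group, and in the other cells of the same library, in grey; circles are batch 1 and triangles batch 2. Ifit1, Rsad2 and Oasl1 spread over a wide range in the selected cells, Rsad2 from 36.3 to 1470 CPM, while Isg15 stayed between 133 and 222 CPM.

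Genes that did not choose the cells were then described, since the 5 marker genes of the label are all among the 8. Interferon-stimulated genes outside the 8 led the genes that were higher in the selected cells. For each gene the log2 ratio of CPM in selected over other cells, with 5 CPM added to both, was taken per library. The cells were chosen by expression, so no test was made. Of 5711 genes with a mean of at least 20 CPM, 105 (1.84%) were higher in all 9 libraries and 49 (0.858%) lower in all 9, and the median gene had a ratio of -0.01. Of the 5711 genes 82 were on the interferon lists and of the 105 genes 48 were, and of the 20 with the highest median ratio 18 were, the exceptions being Ly6a and Trim12c. The limit of 20 CPM was on the mean of selected and other cells. Some of these genes, such as Cxcl10 at 7.82 CPM in the other cells, reached it through the selected cells alone. These counts are therefore a description and are not independent of the difference.

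Effectors of antiviral defence led that group. Of 38 antiviral genes measured at that level, 31 were higher in all 9 libraries and none lower, with a median log2 ratio of 0.72. A gene could reach that level through the selected cells alone, so the count is not independent of the difference. Of the 28 with at least 20 CPM in the other cells 22 were higher in all 9, with a median of 0.67, and of all 65 in the files 48 were. Oasl2, of the oligoadenylate synthetase family that senses double-stranded RNA, had a median log2 ratio of 1.96. In young 1 to 3 its level was 66.6, 74.3 and 108 CPM against 19.8, 18.7 and 7.31 CPM in the other cells. In aged 1 to 3 it was 81.0, 41.6 and 73.3 CPM against 17.2, 11.6 and 9.12 CPM, and in CASIN 1 to 3 it was 78.1, 71.4 and 83.0 CPM against 15.9, 21.6 and 9.70 CPM. The lowest selected value, in aged 2, was thus above the highest value of the other cells. Ifi44 (1.71), the pro-apoptotic Xaf1 (1.36), Oas1a (1.31), Ifi27l2a (1.19) and Slfn8 (1.12) followed on the same scale. The ADP-ribosyltransferase family genes Parp14 (1.01) and Parp9 (0.98), the exonuclease gene Isg20 (0.98), Rnf213 (0.94), Trim30a (0.93) and the ubiquitin ligase gene Herc6 (0.91) were also among the 20. The most abundant antiviral gene was Ifitm3, whose product blocks virus entry at membranes, at 1363 CPM against 871 CPM in the other cells. Slfn1 was the one antiviral gene with no UMI in the selected cells, and Uba7, the enzyme that activates ISG15 for conjugation, had a ratio of -0.04.

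Pooled over the libraries of a batch, cells in which more of the 8 genes were detected gave a larger share of their UMIs to antiviral genes outside the 8. Their median was 42.3 UMIs per 10000 UMIs of a cell in batch 1 cells with none of the 8, 57.5 in those with 4, 71.2 in those with 6 and 114 in those with 8. In batch 2 it was 32.6 with none, 47.6 with 4 and 61.4 with 6, and the 2 cells with 7 and the 1 cell with 8 stood at 147 and 136. Median depth was 11428 UMIs with none and 12846 with 4 in batch 1, and 9772 and 15872 in batch 2. Within single libraries the medians climbed at each step from 4 genes up in young 1, 2 and 3 and CASIN 3, from 51.9 with 4 to 96.5 with 8 in young 1, and not at each step in the other 5. The upper steps rested on few cells, with 2 cells at 8 genes in young 1 and 4 in young 2. Young 3 had 1 cell each at 6, 7 and 8 genes, and CASIN 3 had 4 cells at 5 genes, 6 at 6 and 1 at 7. In aged 2 the medians were 50.3 with 4, 49.2 with 5 and 43.0 with 6 of the 8, the last over 2 cells, and in CASIN 1 they were 81.0 with 5 and 65.2 in the 1 cell with 8. In each of the 9 libraries the selected cells had the higher median, from 49.8 against 35.9 in aged 2 to 69.9 against 48.3 in CASIN 1.

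**Figure D3:**
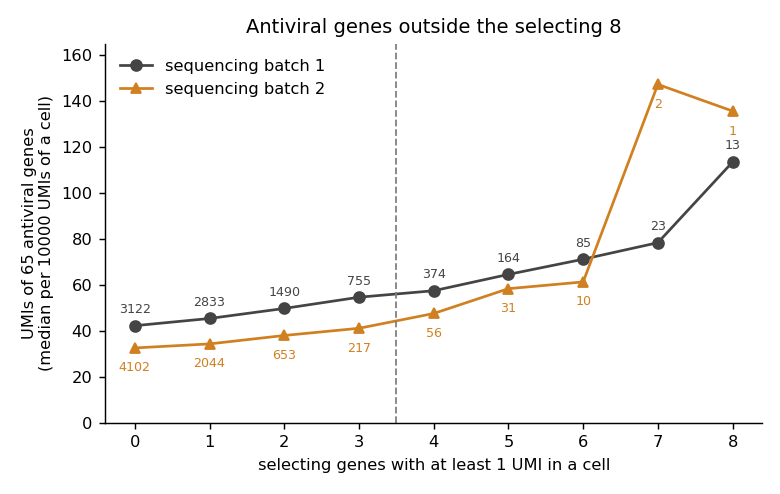
Median UMIs of 65 antiviral genes outside the selecting 8 per 10000 UMIs of a cell (y axis) by the number of the 8 genes detected (x axis), in batch 1 (circles) and batch 2 (triangles); numbers give the cells behind each point and the dashed line is the limit of 4 genes. Both lines climb from none to 6 genes without a jump at the limit, from 42.3 to 71.2 in batch 1 and from 32.6 to 61.4 in batch 2, and the points at 7 and 8 genes in batch 2 rest on 2 cells and 1 cell.

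GTPases and genes typical of the response to interferon gamma were higher as well, with 7 of 8 measured genes higher in all 9 libraries and a median log2 ratio of 0.94. Only 4 of them had at least 20 CPM in the other cells, of which 3 were higher in all 9 with a median of 0.77, and of all 20 in the files 11 were. Among measured genes outside the 8 that were higher in all 9 libraries, the chemokine gene Cxcl10 had the highest ratio, a median of 2.44. It was detected in only 15.1% of the selected and 4.03% of the other cells (mean over libraries), and it followed the batches. In batch 1 it was at 8.64, 22.2, 8.24, 6.09 and 57.8 CPM in young 1, young 2, aged 1, CASIN 1 and CASIN 2, and in batch 2 at 616, 505, 351 and 176 CPM in young 3, aged 2, aged 3 and CASIN 3. Every batch 2 library was above every batch 1 library, as for Rsad2. The immunity-related GTPases Igtp (1.16) and Irgm1 (1.07) and the guanylate-binding proteins Gbp2 (0.99) and Gbp7 (0.90), which act on the vacuoles of intracellular pathogens, varied less. ISRE letters were also found in promoters of these genes, and 4 are shown because they belong to genes outside the 8 with high ratios. The Cxcl10 stretch lies at chr5:92349073-92349122 on the - strand, the Oas1a stretch at chr5:120907526-120907565 on the - strand, the Igtp stretch at chr11:58199502-58199551 on the + strand and the Irgm1 stretch at chr11:48871421-48871470 on the - strand, with capitals as above.
Cxcl10: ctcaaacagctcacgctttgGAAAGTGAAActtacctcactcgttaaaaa
Oas1a: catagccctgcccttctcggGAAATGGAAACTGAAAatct
Igtp: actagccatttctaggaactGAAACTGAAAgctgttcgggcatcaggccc
Irgm1: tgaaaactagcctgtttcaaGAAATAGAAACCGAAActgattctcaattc
Of the 15 of the 20 highest-ratio genes with a RefSeq promoter, 9 (60.0%) held the ISRE letters and 4 (26.7%) the GAS letters TTCNNNGAA, against 2.98% and 7.02% of all promoters. On the GTPase and gamma-type list 11 of 15 promoters (73.3%) held ISRE letters and on the antiviral list 12 of 52 (23.1%). Oasl2, Ifi44 and Xaf1 had no match in the window.

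The genes of the complex that binds the ISRE were higher, and the receptors were near the level of the other cells. Irf9, its DNA-binding part, had a median log2 ratio of 0.79, with 53.9 CPM ± 13.3 against 28.9 ± 4.56 in the other cells (SD, n = 9). Stat2 had a ratio of 0.99, with 24.7 CPM ± 10.3 against 10.4 ± 3.67 (SD, n = 9), and both genes were higher in 9 of 9 libraries. The receptor chains Ifnar1 (-0.01, higher in 4 of 9 libraries) and Ifnar2 (0.12, higher in 8 of 9) and the kinase gene Jak1 (-0.02) were near 0 on the same scale. Of 6 measured inhibitors 1 was higher in all 9 libraries, the phosphatase gene Ptpn6, at a ratio of 0.07. Usp18, which takes ISG15 off proteins and damps the receptor, had a ratio of 1.34 at a low level. The cytosolic RNA sensors Ddx58 (0.87), Ifih1 (0.87) and Dhx58 (1.32), which encode RIG-I, MDA5 and LGP2, were higher in 9 of 9 libraries, and 3 of 6 sensors measured at 20 CPM were. Interferon genes themselves were almost absent. Of 21 ligand genes 18 had no UMI in the selected cells, all 21 together had 6 UMIs, and Ifnb1 was highest at a mean of 0.802 CPM.

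Genes of antigen presentation moved less. Of 17 class I genes measured 6 were higher in all 9 libraries, with a median log2 ratio of 0.19. Among them were the peptide transporter gene Tap1 (0.41, 115 against 77.6 CPM), H2-T23 (0.40) and H2-T22 (0.38), whereas the classical H2-K1 was at 1848 CPM against 1861 CPM. None of 6 class II genes was higher in all 9 libraries, with Cd74 at 241 against 206 CPM. Of 11 cell death genes none was higher in all 9 libraries and the anti-apoptotic Bcl2 was lower in all 9, at 37.0 against 46.2 CPM. Of 14 immediate early genes, Jun and Junb were higher in all 9, each at a ratio of 0.23.

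**Figure D4:**
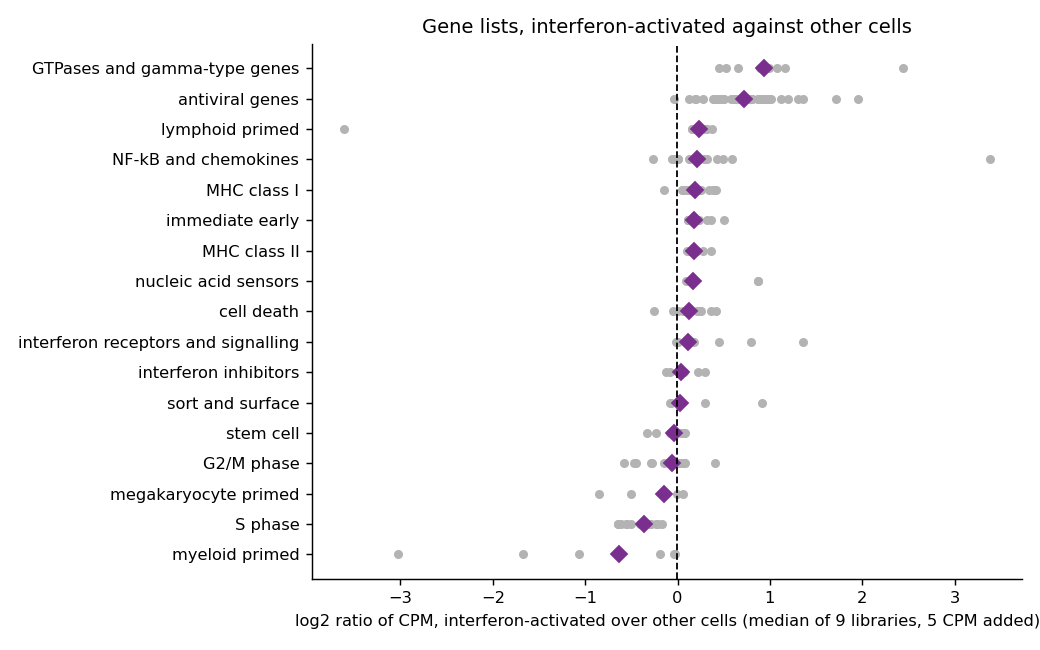
Log2 ratio of CPM in interferon-activated over other cells (x axis, median of 9 libraries, 5 CPM added) for the genes of 17 lists (y axis); grey points are genes and diamonds the median of a list. The 2 lists of interferon effectors have medians of 0.94 and 0.72, and the medians of the other lists lie between -0.63 and 0.23.

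Apart from Sca-1, most of the surface and stem cell genes named here were near the level of the other cells. Ly6a encodes Sca-1, one of the proteins of the sort, and is known to be inducible by interferon. It was at 265 CPM ± 51.5 against 142 ± 29.3 in the other cells (SD, n = 9), higher in 9 of 9 libraries, and it was detected in 85.0% of the selected and 66.9% of the other cells. Kit (-0.07), Cd34 (0.03), Cd48 (-0.08) and the stem cell gene Procr (-0.02) were near 0 as log2 ratios, and Flt3, of lymphoid-primed progenitors, was at 0.30. None of 8 stem cell genes and none of 6 lymphoid genes was higher or lower in all 9 libraries. Cdc42, the target of CASIN, was at 384 against 372 CPM.

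Cells with a myeloid program were called interferon-activated less often at 1 of 3 depths compared, and that call was lost when any one of 8 of the 9 libraries was left out. With cells thinned to 4000 UMIs, 0.244% of cells with at least 2 of Mpo, Elane, Ctsg and Prtn3, the granule genes of granulocyte and monocyte progenitors, were interferon-activated, against 0.843% of cells without them. This difference of -0.599 percentage points (SD 0.371, lower inside in 8 of 9 libraries) had an exact paired permutation p of 0.00781, adjusted over 6 gates to 0.0469. The adjusted exact permutation p was 0.0938 with any library but aged 2 left out. Aged 2 had the opposite sign, and with it among 8 libraries the unadjusted exact p could not be smaller. This loss of the call therefore does not measure how stable the difference was. With each library left out in turn the difference ran from -0.677 to -0.534 points. With at least 3 selecting genes the difference was -1.55 points (adjusted exact permutation p = 0.0469) and with at least 5 it was -0.190 points (adjusted exact permutation p = 0.0117, lower inside in 9 of 9 libraries). At 4 genes it rested on 7 interferon-activated cells inside the gate, and at 5 on 3. Thinned to 2000 UMIs, where 3 such cells were left, the difference was 0.0403 points, and without thinning it was -0.734 points with an adjusted p of 0.223. Cells with at least 2 mitosis genes were activated in 0.352% against 0.857% (exact p = 0.0625, adjusted 0.188, lower inside in 7 of 9 libraries). This gate passed thinned to 2000 UMIs (-0.268 points, adjusted exact permutation p = 0.0469, 1 activated cell inside). It also passed with at least 5 selecting genes (-0.235 points, adjusted exact permutation p = 0.0117, 2 activated cells inside). It did not pass with at least 3 (-1.65 points, adjusted exact permutation p = 0.0586) or without thinning (-0.634 points, 0.344). The Procr, Flt3, Dntt and megakaryocyte gates had differences of 0.220, 0.265, 0.277 and -0.176 points, with adjusted exact permutation p-values of 0.216, 0.216, 0.216 and 0.426. At 4000 UMIs and this number of cells no difference was detectable for these 4 gates. Without thinning the Dntt gate was at 1.71 points, higher inside in 9 of 9 libraries (adjusted exact permutation p = 0.0234). The megakaryocyte gate passed at 2000 UMIs, at -0.193 points (adjusted exact permutation p = 0.0469), with 1 interferon-activated cell inside. Thinned to 2000 UMIs, with 3 interferon-activated cells left inside the Procr gate, its difference had the opposite sign, at -0.143 points with an adjusted exact permutation p of 0.0469. The S-phase genes had a median log2 ratio of -0.37, with 1 of 18 lower in all 9 libraries. The cycle genes E2f3 (-0.39), Cdk2 (-0.37) and Smc6 (-0.40) were among the 10 lowest of the 49 genes that were lower in all 9. The myeloid list had a median log2 ratio of -0.63 and the mitosis list of -0.06, and for cells chosen after thinning to 4000 UMIs these were -2.48 and -1.94.

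Among the genes lower in all 9 libraries, the 2 with the lowest ratios belong to antibody-secreting cells. Igkc, the kappa light chain, had a log2 ratio of -5.59 and Jchain of -2.54, and Txndc5, Iglc1 and Ighg2b were also among the 10 lowest, as was the growth factor gene Vegfb (-0.41). The selected cells held 11 Jchain, 6 Iglc1 and 12 Ighg2b UMIs in all. In young 1 they had no Jchain UMI, which allows up to 0.762 CPM, against 0.353 CPM in the other cells, so in such libraries the sign was set by depth. Igkc was at 0.370 to 309 CPM in the selected cells and at 174 to 15165 CPM in the other cells, yet the share of cells with an Igkc UMI was similar, 46.9% against 42.9%. Itga2b, of the megakaryocyte lineage, was at 18.2 against 29.6 CPM, lower in all 9 libraries. Some marker genes of other cell types were not detected in the selected cells. The T cell genes Cd3e and Cd3g, the B cell gene Ms4a1, the neutrophil gene Ly6g, the macrophage gene Adgre1 and the endothelial gene Cdh5 had no UMI. The summed lymphocyte list was at 162 CPM against 174 CPM in the other cells and mature myeloid genes at 240 against 370 CPM, with Nkg7 and Lyz2 as the most abundant genes. Genes of plasmacytoid dendritic cells summed to 291 against 307 CPM, erythroid genes to 506 against 491 CPM and stromal genes to 160 against 63.8 CPM. Stromal genes summed to 861 CPM in young 3 and to 34.0 to 132 CPM in the other libraries. A single cell of young 3 held 243 Cxcl12 UMIs, 1 cell each of young 2 and CASIN 2 held 85 and 81, and 1 cell of CASIN 3 held 517 Elane UMIs.

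In expression space the cells were neighbours of each other slightly more often than of other cells. Among the 30 nearest neighbours in a space built without the 8 genes, the share of interferon-activated cells was a median of 1.27 times that around other cells (0.711 to 2.35 over libraries, above 1 in 7 of 9). With all interferon lists removed, the ratio was again 1.27 (0.650 to 2.57, above 1 in 8 of 9).

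To ask how age changed these cells, UMIs were summed over the interferon-activated cells of each library and tested with edgeR's quasi-likelihood test with a batch term, Benjamini-Hochberg adjusted over 7637 genes. The cells of every group were chosen by the same limit, so these are changes among cells above it, and more positive cells or more RNA per cell cannot be told apart in summed UMIs. The aged cells had higher levels of stem cell and immediate early genes, while most antiviral genes did not pass the test. Between aged and young cells 172 genes were higher (2.25%) and 24 lower (0.314%), and 179 of the 196 had the same direction within both batches. The 10 with the largest change were Gpr183, Matn4, Clca3a1, Mt2, Vwf, Cyp26b1, Cldn5, Gm10419, Ehd3 and Gda, with log2 fold changes of 5.11 to 6.61. Vwf, the von Willebrand factor of platelet-biased stem cells, was at 1.27, 2.22 and 0 CPM in young 1 to 3 and at 64.5, 27.7 and 13.1 CPM in aged 1 to 3. The groups did not overlap, and its log2 fold change was 5.32 (SE 0.43, adjusted p = 2.25e-06 by edgeR). Gda, a guanine deaminase, was at 1.52, 4.80 and 0 CPM in young and at 97.5, 13.9 and 7.85 CPM in aged cells (5.11, SE 0.38, adjusted p = 2.25e-06 by edgeR). No UMI in young 3 allows up to 8.08 CPM there, which is above the Gda level of aged 3. Gpr183 was at 121 CPM in aged 1 and at 7.92 and 0 CPM in aged 2 and 3, so its fold change of 6.61 rested mostly on 1 library. All 10 genes were highest in aged 1 among the aged libraries. Matn4 was at 46.7, 1.98 and 0 CPM in aged 1 to 3, Cldn5 at 130, 0 and 2.62 CPM and Cyp26b1 at 24.7, 0 and 2.62 CPM. Ehd3 was at 41.2, 3.96 and 2.62 CPM and Gm10419 at 38.4, 11.9 and 0 CPM. Apart from Gm10419 in aged 2, these batch 2 values lie below the 8.08 CPM that no UMI in young 3 allows. Without aged 1, the aged library of batch 1, 28 genes passed, and without young 3, the young library of batch 2, 613 did. Without the batch term 1 gene passed.

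Of 10 stem cell genes tested 7 rose and none fell, with a median log2 fold change of 2.19 against 0.01 over all genes. Procr, the endothelial protein C receptor that marks stem cells, was at 42.9, 39.5 and 70.0 CPM in young 1 to 3 and at 100, 148 and 55.0 CPM in aged 1 to 3. The ranges overlapped through aged 3, and the change of 1.17 (SE 0.29) had an adjusted p of 0.0466 by edgeR, a call that was lost in 7 of 9 fits with 1 library left out. Mllt3, a maintenance factor of stem cells, rose by 2.18, the stress-response gene Nupr1 by 4.65, Mecom by 1.33 and the imprinted RNA Meg3 by 3.71. Sult1a1 rose by 5.22 but was lower in aged than in young cells within batch 2. Other lists also had several members that rose. Of 14 immediate early genes, induced within minutes of a stimulus, 11 rose, with a median of 1.09. Nr4a1, an orphan nuclear receptor, was at 120, 157 and 258 CPM in young and at 422, 1578 and 463 CPM in aged cells, which did not overlap (1.92, SE 0.32, adjusted p = 0.00321 by edgeR). Jund (1.12), Fosb (1.58), Nr4a2 (2.64), Atf3 (1.25), Jun (0.96), Zfp36 (1.01), Ier2 (1.06), Junb (1.25), Fos (0.81) and Egr1 (1.24) rose with it. Fosb and Nr4a2 did not overlap between the groups, but Jun and Atf3 did. Jun was at 649, 651 and 199 CPM in young and at 1042, 459 and 361 CPM in aged cells. Atf3 was at 13.5, 24.0 and 94.2 CPM in young and at 28.8, 426 and 254 CPM in aged cells. Of the megakaryocyte genes Zfpm1 (1.31) and Itga2b (1.77) rose, and of 6 class II genes H2-Aa (1.63) and H2-Eb1 (1.71). Of the lymphoid genes Dntt fell by 0.86, and of the myeloid genes Irf8, a factor of monocyte and dendritic progenitors, fell by 1.84.

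The antiviral program itself showed 6 of 55 genes higher and none lower with age, and a median log2 fold change of -0.02. Over all 7637 genes 2.25% were higher and 0.314% lower. The 6 were Phf11d (2.51), Uba7 (1.90), Lgals3bp (0.95), Ly6e (0.62), Ifitm3 (0.56) and Ifitm1 (0.50). Ifitm3 was at 1111, 1124 and 999 CPM in young and at 2033, 1057 and 1134 CPM in aged cells, so the ranges overlapped. Phf11d was lower in aged than in young cells within batch 2. No GTPase or gamma-type gene of 14, no sensor of 10 and no inhibitor of 9 passed, and of 12 signalling genes Il10rb, a receptor chain for interferon lambda, fell by 1.40. Ly6a was at 190, 228 and 213 CPM in young and at 298, 236 and 288 CPM in aged cells, which did not overlap, but its log2 fold change of 0.45 (SE 0.16) had an adjusted p of 0.182 by edgeR. Of the 8 selecting genes, Oasl1 was at 26.4, 30.7 and 261 CPM in young and at 15.1, 65.3 and 65.4 CPM in aged cells.

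**Figure D5:**
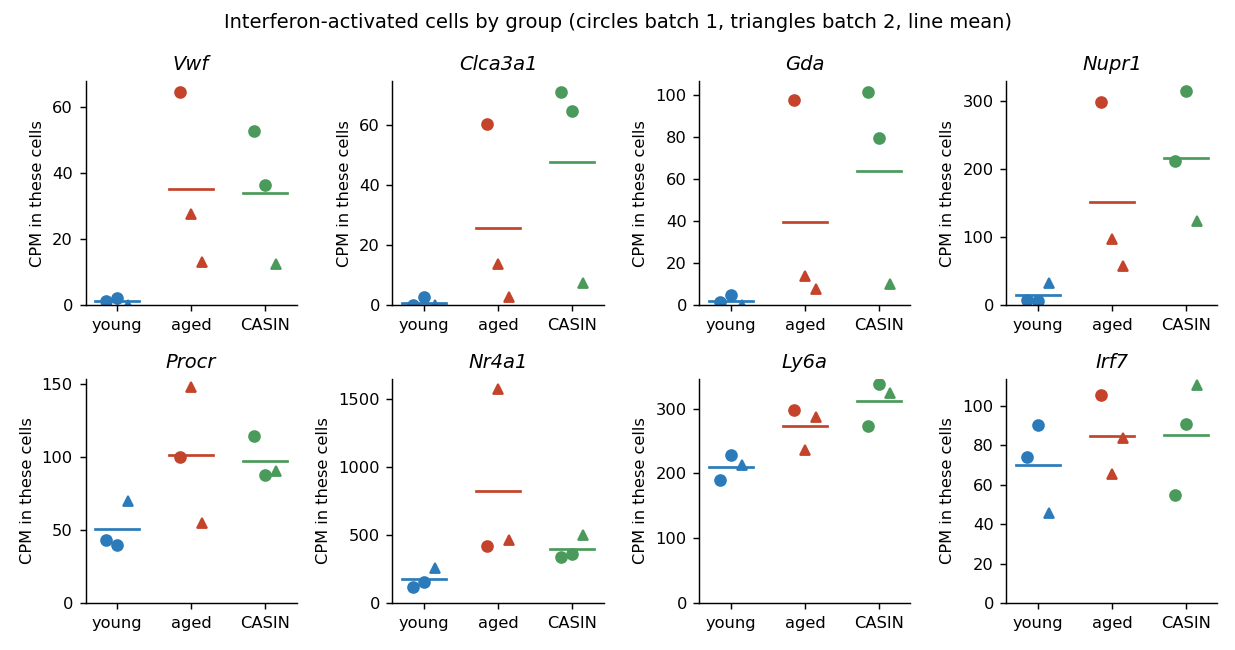
Level of 8 genes (y axis, CPM) in the interferon-activated cells of each library by group (x axis); points are libraries, circles batch 1 and triangles batch 2, and lines are group means. Vwf, Nr4a1 and Ly6a do not overlap between young and aged, whereas Procr and Irf7 do.

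Between CASIN and aged mice no gene of 7637 passed within these cells (0%), in edgeR or in DESeq2, and 314 had an unadjusted p below 0.05 in edgeR. Nr4a1 was at 335, 359 and 500 CPM in CASIN 1 to 3, against 422, 1578 and 463 CPM in the aged libraries (log2 fold change -0.66, SE 0.32, adjusted p = 1 by edgeR). The selecting genes chose the cells, so their levels are a description only and were not used to compare the groups. Isg15 was at 134, 148 and 133 CPM and Ifit1 at 45.6, 70.1 and 65.4 CPM in CASIN cells, each below all 3 aged libraries. Rsad2, Oasl1, Iigp1, Zbp1, Irf7 and Rtp4 overlapped between CASIN and aged libraries. Cdc42 was at 362, 368 and 362 CPM in CASIN cells and at 341, 428 and 461 CPM in aged cells, which overlapped (-0.10, SE 0.13).

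CASIN cells differed from young cells in many of the genes named for age, and this comparison shares the young libraries with the one above. In it 298 genes were higher (3.9%) and 100 lower (1.31%), and 303 of the 398 had the same direction within both batches. Without young 3, 1014 genes passed, and without young 1, 120 did. The 10 largest, Clca3a1, Ehd3, Matn4, Gda, Gm10419, Nupr1, Vwf, Cavin2, Cldn5 and Ramp2, had log2 fold changes of 4.60 to 5.90. In CASIN 3 Matn4 was at 2.51 CPM, Cldn5, Gm10419 and Cavin2 at 5.03 CPM each, and Ehd3 and Clca3a1 at 7.54 CPM each. These lie below the 8.08 CPM that no UMI in young 3 allows, so their direction within batch 2 rests on very few UMIs. Gda, Vwf, Ramp2 and Nupr1 were above it in CASIN 3, at 10.1, 12.6, 12.6 and 123 CPM. Nupr1 was at 7.88, 6.65 and 32.3 CPM in young and at 211, 314 and 123 CPM in CASIN cells, which did not overlap (4.82, SE 0.45, adjusted p = 7.64e-06 by edgeR). Of 10 stem cell genes 9 rose, namely Procr, Mecom, Mllt3, Vwf, Nupr1, Meg3, Slamf1, Fgd5 and Sult1a1. The last 3 were lower in CASIN than in young cells within batch 2. Of 14 immediate early genes 11 rose, of which Egr1 (1.19) was lower within batch 2. Of 55 antiviral genes 5 rose, namely Slfn2 (1.91), Uba7 (1.90), Lgals3bp (0.88), Ly6e (0.69) and Ifitm3 (0.60), with a median of -0.02. Slfn2 was at 12.5, 13.3 and 8.08 CPM in young and at 44.6, 48.0 and 22.6 CPM in CASIN cells, which did not overlap. Ly6a was at 273, 339 and 324 CPM in CASIN cells, above all 3 young libraries (0.61, SE 0.14, adjusted p = 0.0214 by edgeR). Procr rose by 1.15 and Cd74 by 1.02, Flt3 fell by 0.99, and Dntt and Satb1 fell with it. The calls of Procr and Flt3 were lost in 4 of 9 fits each with 1 library left out, that of Cd74 in 3 of 9 and that of Ly6a in 3 of 9. Among cycle genes 2 of 20 S-phase genes (Mcm4, Slbp) and 2 of 19 mitosis genes (Cenpe, Aurkb) fell and none rose, but both mitosis genes were higher in CASIN than in young cells within batch 2.

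The other LSK cells gave the reference for these changes. In them 424 genes were higher (3.1%) and 58 lower (0.424%) in aged than in young mice over 13688 genes, and all 196 genes called in the interferon-activated cells had the same sign there. The 105 genes called in both were 53.6% of the calls in interferon-activated cells and 21.8% of those in the other cells. For CASIN against young mice 473 genes were called in the other cells (3.46%), 122 genes were called in both (30.7% and 25.8%), and all 398 had the same sign. Both classes of cells came from the same libraries, and the share of all tested genes with the same sign is not given here. The agreement in sign therefore has no reference value. CASIN against aged mice gave 0 genes in the other cells too (0%), with 421 at an unadjusted p below 0.05 in edgeR and 1 gene in DESeq2. A direct test of the difference between the changes in both classes of cells, with library as a block, called 11 of 13333 genes (0.0825%) for aged against young, 8 (0.06%) for CASIN against aged and 27 (0.203%) for CASIN against young, and DESeq2 called none in any of the 3. On simulated counts the edgeR test of the difference recovered 45 of 200 genes with a log2 difference of 1 and 130 of 200 with 2. Procr, Vwf, Nr4a1 and Ly6a were not among the genes called. Irf8 was, for aged against young, with a fall of 1.84 in interferon-activated cells and -0.13 in the others (adjusted p of the difference 0.0447 by edgeR). Its level was 21.9, 41.0 and 70.0 CPM in young and 5.49, 23.8 and 36.7 CPM in aged cells, which overlapped, and 1 cell held 70 of the 111 Irf8 UMIs of young 2. For CASIN against young, Nr4a2 rose by 2.43 in interferon-activated cells and by 1.59 in the others (adjusted p of the difference 0.0162 by edgeR), and Meg3 by 4.09 in interferon-activated cells against a log2 difference of 1.83 in the others (adjusted p of the difference 0.0171 by edgeR).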

How the data were processed

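Per the labels and the study's methods, the authors sequenced LSK cells with 10x Genomics 3′ v3 chemistry, mapped the reads to mm10 (submitters' processing notes) with an Ensembl annotation, counted UMIs per gene and barcode with Cell Ranger 3.1.0 and deposited these raw counts without normalization. No column of per-sample values was left unused (0). Barcodes were filtered by the limits given above, which kept 15975 of 32387 barcodes, and the study's added residual filter of 0.4 was an alternative (15856 cells). CPM were computed on UMIs summed per library and class of cells. Genes were tested on these sums with edgeR 4.0.16 (TMM, filterByExpr, batch term, all 9 libraries, threshold 0.05) in R 4.3.3; DESeq2 1.42.0 was an alternative. Shares were compared with exact permutation tests in Python 3.11.15 (scipy 1.17.1, numpy 2.4.6, pandas 2.3.3), neighbours used 2000 variable genes and 30 principal components (scikit-learn 1.9.0), and figures used matplotlib 3.10.9. Doublets stayed in; Scrublet (scanpy 1.11.5) marked 80 cells (0.501%), 6 of them interferon-activated, a share so low that it may not have worked. Motifs were searched on both strands of RefSeq promoters.

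The selecting genes, the gene lists and the tests were chosen with earlier results of these data known. Genes are named if they had the 20 highest or 10 lowest median ratios with the same sign in 9 of 9 libraries, or up to 10 largest changes per comparison among genes that passed the threshold and moved one way in both batches; a fixed set (the selecting genes, Stat2, Irf9, Usp18, Ifnar1, Ifnar2, Ly6a, Kit, Procr, Cd48, Flt3, Cd74, H2-K1, Nr4a1, Cdc42) was also to be named, with the most abundant, highest and lowest gene of each list, of which only some are given, and some members of a list that passed its test are named beside its count. Results for some genes are not reported here. On simulated counts for aged against young in these cells, 97 of 200 genes with a log2 fold change of 1 and 185 of 200 with 2 were recovered, with 8.49% and 5.13% of calls false. The low recovery at 1 limits what 9 libraries can show. The alternatives were DESeq2, its size factors, no filter, leaving out the batch term, blocking on replicate number, restricting the fit to the groups compared, other numbers of selecting genes, thinning, other cell filters, Scrublet calls left out and each library left out in turn; leaving out cells high in Cxcl12 or Elane, leaving out cells high in Rsad2, batch 1 alone and a limit of 20 CPM on the other cells were added after seeing the data.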

Additional observations from a re-analysis of the deposited data

Results flagged for a closer look

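The direct test of whether a change differed between interferon-activated and other cells called 11 genes for aged against young, 8 genes for CASIN against aged and 27 genes for CASIN against young (edgeR's quasi-likelihood test, Benjamini-Hochberg adjusted over 13333 genes), and DESeq2 called 0 in each, beside 637, 593 and 765 genes at an unadjusted p below 0.05 in edgeR. All 11 genes of aged against young had the lower change in the interferon-activated cells: Cxcl12, Hp, Nts, Gpx3, Cyr61, Lpl, Ebf1, Serpine2, Hspa1a, Csf1 and Irf8. Cxcl12 had 415 UMIs in 6 interferon-activated cells, 58.6% of them in a single cell, and Hp had 125 UMIs in 4 cells, 71.2% in 1 cell. One cell of young 3 held the 243 Cxcl12 and 28 Hp UMIs of that library, all 39 of Cyr61, 32 of Lpl and 43 of Gpx3, 57 of 59 of Serpine2, 21 of 23 of Ebf1, 45 of 56 of Hspa1a and 17 of 19 of Csf1, and another cell held its 19 Nts UMIs. For Irf8, 1 cell of young 2 held 70 of 111 UMIs. With the 4 cells of high Cxcl12 or Elane left out, the count for aged against young was 9.

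For CASIN against aged the 8 genes were Elane, Ms4a3, Mpo, Prtn3, F630028O10Rik, Loxl2, Myl10 and Tmsb10. Elane had 530 UMIs, of which 97.5% were in 1 cell of CASIN 3, and that cell also held 65 of the 90 Ms4a3 and 424 of the 1151 Mpo UMIs, and 490 of the 697 Prtn3 UMIs of that library. With the same 4 cells left out the count was 6. For CASIN against young the 27 genes included the histone genes Hist1h1a, Hist1h1b and Hist1h2ae and the mitosis genes Prc1 and Pbk, all with the lower change in interferon-activated cells, and Ighm, Ly6d, Cxcl2, Trim47, Wfdc17, Cd52 and Crip1. Without the 4 cells that count was 63. Within batch 2, Hist1h1a, Hist1h1b, Prc1 and Pbk were higher in CASIN than in young interferon-activated cells.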

How the results depend on the processing

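The batch term decided most counts of genes. Within interferon-activated cells, aged against young gave 196 genes; this became 579 without a filter, 1 without a batch term, 58 with only those groups, 460 with at least 3 and 81 with at least 5 selecting genes, 9 with cells chosen after thinning and 570 in batch 1 alone. CASIN against aged, at 0, became 37, 1 with only those groups, 2 and 3 (at least 3 or 5 genes), and 1 without cells high in Rsad2. CASIN against young, at 398, became 217 with DESeq2, 904 without a filter, 2 without a batch term, 802 with at least 3 genes, 27 after thinning and 1400 in batch 1 alone. In the other cells aged against young, at 482, became 1084 with DESeq2, 738, 0 without a batch term, 117 with only those groups and 2256 in batch 1; CASIN against aged became 1 with DESeq2; CASIN against young, at 473, became 1141, 766, 0, 1552 and 1607. The counts for the difference between classes became 0 (DESeq2 or no batch term) in all 3 comparisons. For aged against young, at 11, they were 44 without a filter, 3 after thinning, 18 without Scrublet calls, 17 without cells high in Rsad2 and 22 in batch 1. For CASIN against aged, at 8, they were 24, 69 (at least 5 genes), 5 after thinning and 62 in batch 1. For CASIN against young, at 27, they were 85, 117, 16, 63 without cells high in Cxcl12 or Elane, and 377 in batch 1.

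Replicate numbers did not pair the libraries. Same-numbered libraries correlated at 0.45 to 0.64 for number 1, -0.45 to 0.54 for number 2 and 0.48 to 0.59 for number 3, where number 2 spans both batches. With the replicate block 96, 0 and 268 genes passed in interferon-activated cells and 74, 0 and 279 in the others; the difference between classes already had a library block.

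Of the gates thinned to 2000 UMIs, Procr (-0.143 points), Flt3 (-0.00319) and myeloid (0.0403) changed sign, and Procr in its reversed direction, megakaryocyte (-0.193) and mitosis (-0.268) passed. With at least 5 selecting genes Flt3 was at -0.0400 and mitosis passed at -0.235. Without thinning Dntt passed at 1.71, myeloid at -0.734 did not, and the Flt3-positive, Procr-negative share of CASIN against aged went from -0.00444 to 1.31. The antiviral median was 1.15 for cells chosen after thinning.

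With each library left out, the counts ran from 28 to 613, 0 to 2 and 120 to 1014 in interferon-activated cells, 13 to 732, 0 to 1 and 14 to 1393 in the others, and 5 to 56, 3 to 98 and 11 to 284 for the difference. Differences in share ran from -7.21 to -2.83, 0.852 to 4.02 and -4.95 to -0.567 points. Gate differences ran from 0.138 to 0.344 (Dntt), 0.197 to 0.335 (Flt3), -0.634 to -0.297 (mitosis), 0.134 to 0.284 (Procr), -0.315 to -0.0827 (megakaryocyte) and -0.677 to -0.534 (myeloid, which passed with aged 2 left out and not with any other). For 27 calls of single named genes, 292 values under the planned and added alternatives kept direction and side of the threshold and 47 lost significance, 27 of them without the batch term, where no named call was kept, and 6 of 10 after thinning. With a library left out 209 kept both and 33 lost significance. None changed sign in either. Procr for aged against young lost its call in 7 of 14 alternatives and without 7 of 9 libraries; Nr4a1, Procr and Flt3 for CASIN against young lost theirs without 4 of 9 each, and Ly6a and Cd74 without 3. Of the list medians outside the antiviral list, 7 moved by more than their spread, the largest after thinning (-2.48 for myeloid, -1.94 for mitosis and 1.65 for GTPase genes), and none with the limit of 20 CPM set on the other cells. The causes were not tested. Batch 2, with 23 to 28 selected cells per library, limits precision.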
